A study of Danio rerio with 24 samples.

Results

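Heat shock proteins and molecular chaperones were followed across early zebrafish development and TDCIPP exposure. The members were 85 genes of the 19260 that were represented by a single gene symbol on the array. They were chosen by symbol alone: those starting with hsp and then a letter from a to e or a digit, those starting with dnaja, dnajb or dnajc, those starting with cct and a digit, and tcp1. Where a gene had more than 1 row (11 members), the row with the highest mean signal stood for it. A further 12 rows fit the rule only through 1 of several symbols and were not used. The tandem hsp70 genes, the classic heat-inducible HSP70, are among these and are not analysed here, so that this stress read-out is missing below.

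TDCIPP is a chlorinated organophosphate flame retardant. Exposure of wildtype 5D embryos to 2 µM TDCIPP, or to 0.1% DMSO as the vehicle, began at 0.75 hours post-fertilization (hpf) and ended with collection in cleavage (2 hpf) or in gastrulation (6 hpf), on either side of the maternal-to-zygotic transition. Each of the 4 groups (DMSO 2 hpf, TDCIPP 2 hpf, DMSO 6 hpf, TDCIPP 6 hpf) had 3 pools of 25 whole embryos, each pool was hybridised to 2 one-color arrays, and the 2 arrays were averaged before any comparison. The groups differed in no allele, and the TDCIPP groups are compared with embryos that also received DMSO.

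Chaperones bind proteins that are unfolded or still being made. HSP70 takes up and releases short stretches of chain in a cycle driven by ATP, J proteins (the DNAJ families) deliver clients and speed that cycle, and HSP110 and other exchange factors reset it. HSP90 matures signalling proteins at a later stage, the ring-shaped chaperonin CCT folds actin and tubulin, HSP60 with HSP10 folds proteins in mitochondria, and small HSPs hold unfolded chains without ATP. Some of these genes are induced by heat through the factor HSF1 while others are made in every growing cell, and the egg supplies the embryo with transcripts of many of them before its own genome is switched on.

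Values are log2 signals. A difference of 1 is therefore a doubling, and a difference holds relative to the other transcripts on the array, since normalization gave all arrays a similar distribution. In whole embryos, fewer cells of a type and less RNA per cell cannot be told apart. A member was called where limma's adjusted p, over all 61240 rows tested, was below 0.1, the threshold of the study's methods. Array medians over these rows lay between 4.323 and 4.461 at 2 hpf and between 4.472 and 4.543 at 6 hpf. Over all deposited rows, control rows included, they lay further apart, between 3.898 and 4.019 at 2 hpf and between 4.215 and 4.28 at 6 hpf. Small changes over time therefore depend on the scaling. The correlation between the 2 arrays of a pool was 0.985 to 0.993, and between pools of a group 0.983 to 0.991. Of 13 measured genes listed as zygotic stage markers, all 13 rose from 2 to 6 hpf in DMSO embryos, by 2.62 to 6.85, and 8 of 9 measured maternal markers fell.

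No chaperone gene was called with TDCIPP. At 2 hpf, limma called 0 of the 85 members, beside 0% of all genes, and 1 member had an unadjusted p below 0.05, beside 2.06% of all genes. At 6 hpf it called 0 of 85, again beside 0% of all genes, and 1 member had an unadjusted p below 0.05, beside 5.36%. No other setting tried called a member at either time, including the kind of test the study's methods name, run here on pool means. Over all 61240 rows some of these settings did make calls at 6 hpf, at most 52, in a fit of all arrays that took pools as a random block, and 17 with all 12 pools in 1 fit. The median difference of the members was 0.02 at 2 hpf and 0.02 at 6 hpf, where over all genes it was 0.01 and 0.02.

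The intervals show how large a difference these pools leave room for. At 2 hpf the 95% interval lay within 0.5 of 0, a 1.4-fold change, for 82 of the 85 members, beside 88.5% of all genes. At 6 hpf it did so for 74 members, beside 80.3%. An interval within 1 of 0, a doubling, held for all 85 members at 2 hpf and for 84 at 6 hpf, where hsp90aa1.2 was the exception. Of the genes that mark stress in the endoplasmic reticulum, hspa5 (BiP, the HSP70 of that compartment) differed at 6 hpf by 0.13. Its interval was -0.08 to 0.34. For hsp90b1 (GRP94, the HSP90 of the same compartment) the difference was 0.11 with an interval of -0.14 to 0.36. Of 10 members of its lumen, grouped after their values were seen, 8 had a higher mean with TDCIPP at 6 hpf and 2 a lower one. Of 13 listed enzymes and lectins of this compartment, 11 were higher and 2 lower. None of these was called, and over all genes the mean was higher for 10578 and lower for 8682. For hspa8 (HSC70, the main cytosolic HSP70) the 6 hpf difference was -0.01 with an interval of -0.22 to 0.19, and for hsp90ab1 (the cytosolic HSP90 of growing cells) it was 0.02 with an interval of -0.19 to 0.24.

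**Figure D1:**
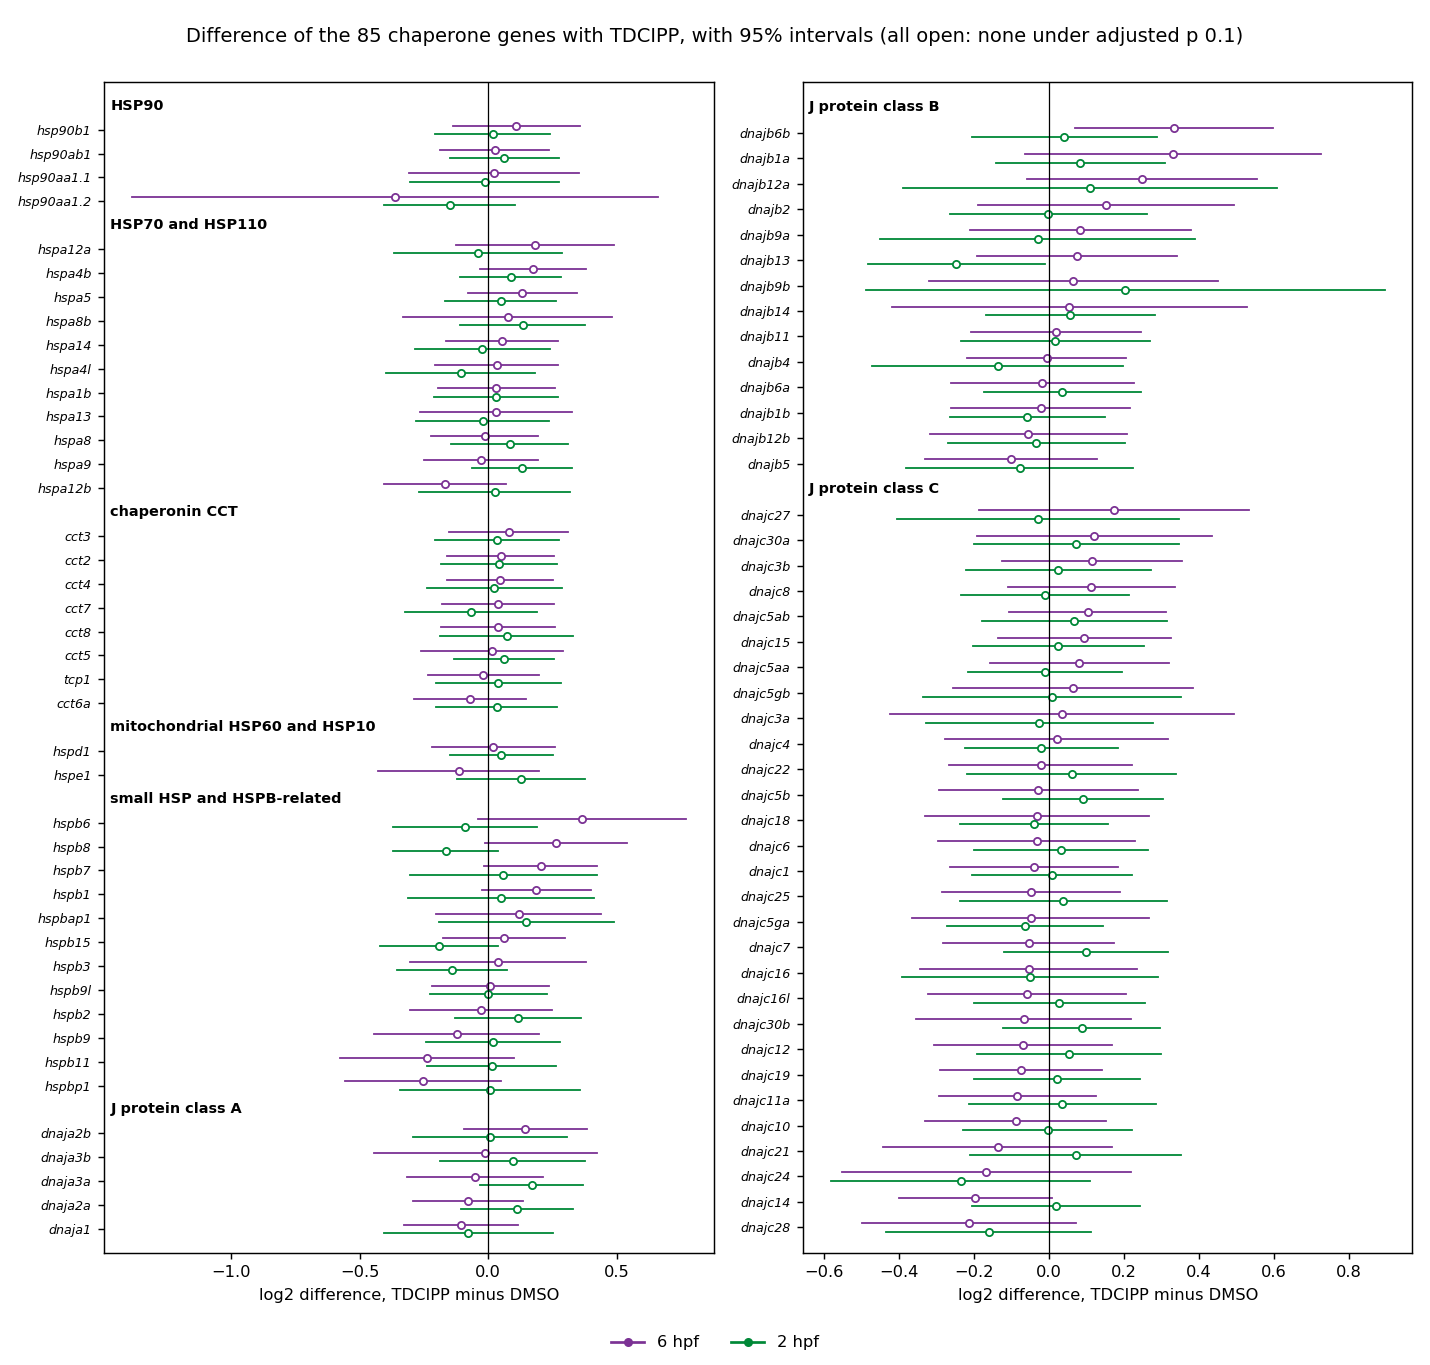
Log2 difference between TDCIPP and DMSO embryos (x axis) for each of the 85 genes (y axis, by role), at 6 hpf (purple) and 2 hpf (green); lines are 95% intervals from limma on 3 pools per group. All points are open because no gene was called, and hsp90aa1.2 has by far the widest interval at 6 hpf, from -1.39 to 0.66.

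The smallest p at 6 hpf belonged to dnajb6b, a J protein known in mammals for holding aggregation-prone proteins apart. Its log2 signals were 7.36, 7.40 and 7.52 in the DMSO pools and 7.82, 7.57 and 7.89 in the TDCIPP pools. The 3 TDCIPP pools thus all lay above the 3 DMSO pools, and the difference of 0.33 ± 0.12 (SE, n = 3 pools per group) had a limma adjusted p of 0.841. The smallest two-sided p that an exact permutation test can give with 3 pools in each group is 0.1.

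The next 4 of the higher members at 6 hpf by p were all small HSPs. They were hspb8 (0.26 higher), hspb7 (0.20), hspb6 (0.36) and hspb1 (0.19), with limma adjusted p from 0.913 to 0.931, and hspb8, hspb7 and hspb6 lay below the median of all rows in every group. In mammals HSPB7 and HSPB6 are best known from heart and muscle, and HSPB8 works with the co-chaperone BAG3. Over the 12 small HSP and HSPB-related members the TDCIPP mean was higher for 8 and lower for 4, and over all 85 members it was higher for 46 and lower for 39. Among all genes it was higher for 10578 and lower for 8682.

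The 5 lower members with the smallest p at 6 hpf had no role in common. They were dnajc14 (0.20 lower), hspbp1 (0.25), dnajc28 (0.21), hspa12b (0.17) and hspb11 (0.24). Of these, dnajc14 is a J protein of the endoplasmic reticulum membrane, hspbp1 an exchange factor for HSP70 and hspa12b a distant relative of HSP70. The limma adjusted p of these 5 members were from 0.913 to 0.95. The TDCIPP and DMSO pools did not overlap at 6 hpf for 9 members, 6 higher (dnajb6b, dnajc5ab, hspa4b, hspa5, hspb1 and hspb7) and 3 lower (dnajc11a, dnajc14 and hspa12b), beside 11.7% of all genes.

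At 2 hpf the pools did not overlap for 5 members, beside 6.06% of all genes. Of these, 3 were higher with TDCIPP, dnaja3a and hspa9 of mitochondria and hspa4b, an HSP110, and 2 were lower, hspb3 and hspb8. The log2 signals of dnaja3a were 8.76, 8.84 and 8.74 in DMSO and 8.96, 8.998 and 8.88 in TDCIPP, a difference of 0.17 ± 0.09 (SE, n = 3 pools per group; limma adjusted p of 1). Of the higher members, dnaja3a, hspa9 (0.13) and hspa8b (0.13) had the smallest p, and of the lower ones dnajb13 (0.25 lower), hspb15 (0.19) and hspb8 (0.17). Each lower member named here (hspb3, hspb8, dnajb13 and hspb15) lay below the median of all rows in every group. The 10 members of mitochondria, grouped after their values were seen, all had a higher mean with TDCIPP at 2 hpf, by 0.02 to 0.17, and at 6 hpf 3 of them did. At 2 hpf the mean was also higher for 55 of all 85 members, for 10153 of the 19260 genes, and for all 9 measured maternal stage markers (by 0.02 to 0.27), whose part in these values was not tested. None of these differences was called.

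The difference between the effects at 6 and 2 hpf was not called for any member either (0 of 85 by limma, smallest adjusted p of 0.9998). The 1 member with an unadjusted p below 0.05, beside 3.66% of all genes, was hspb8. Its signals at 2 hpf were 3.47, 3.58 and 3.42 in DMSO and 3.30, 3.37 and 3.29 in TDCIPP, and at 6 hpf 3.21, 3.34 and 3.29 in DMSO and 3.67, 3.31 and 3.65 in TDCIPP. TDCIPP pools were below all DMSO pools at the early time, and at the later time 2 of the 3 were above them. The effects differed by 0.43 ± 0.15 (SE).

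Between 2 and 6 hpf the share of chaperone genes called was near that of all genes in DMSO and above it in TDCIPP. The gap in TDCIPP was not tested. In DMSO embryos limma called 42 of the 85 members (49.4%), 9 higher and 33 lower. Over all genes 49.1% were called, 16.1% higher and 33% lower. The members' median change was -0.15 and that of all genes -0.09. The TDCIPP embryos, which share no pools with the DMSO ones, had 50 members called (58.8%), 11 higher and 39 lower, beside 49.5% of all genes (17% higher and 32.5% lower). When each array was centred on its median, which moved the median change of all genes in DMSO to -0.22, these splits became 7 higher and 45 lower in DMSO and 6 higher and 48 lower in TDCIPP. Calls over all 61240 rows, not split by direction, went from 24442 to 26643 in DMSO and from 24659 to 25817 in TDCIPP.

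**Figure D2:**
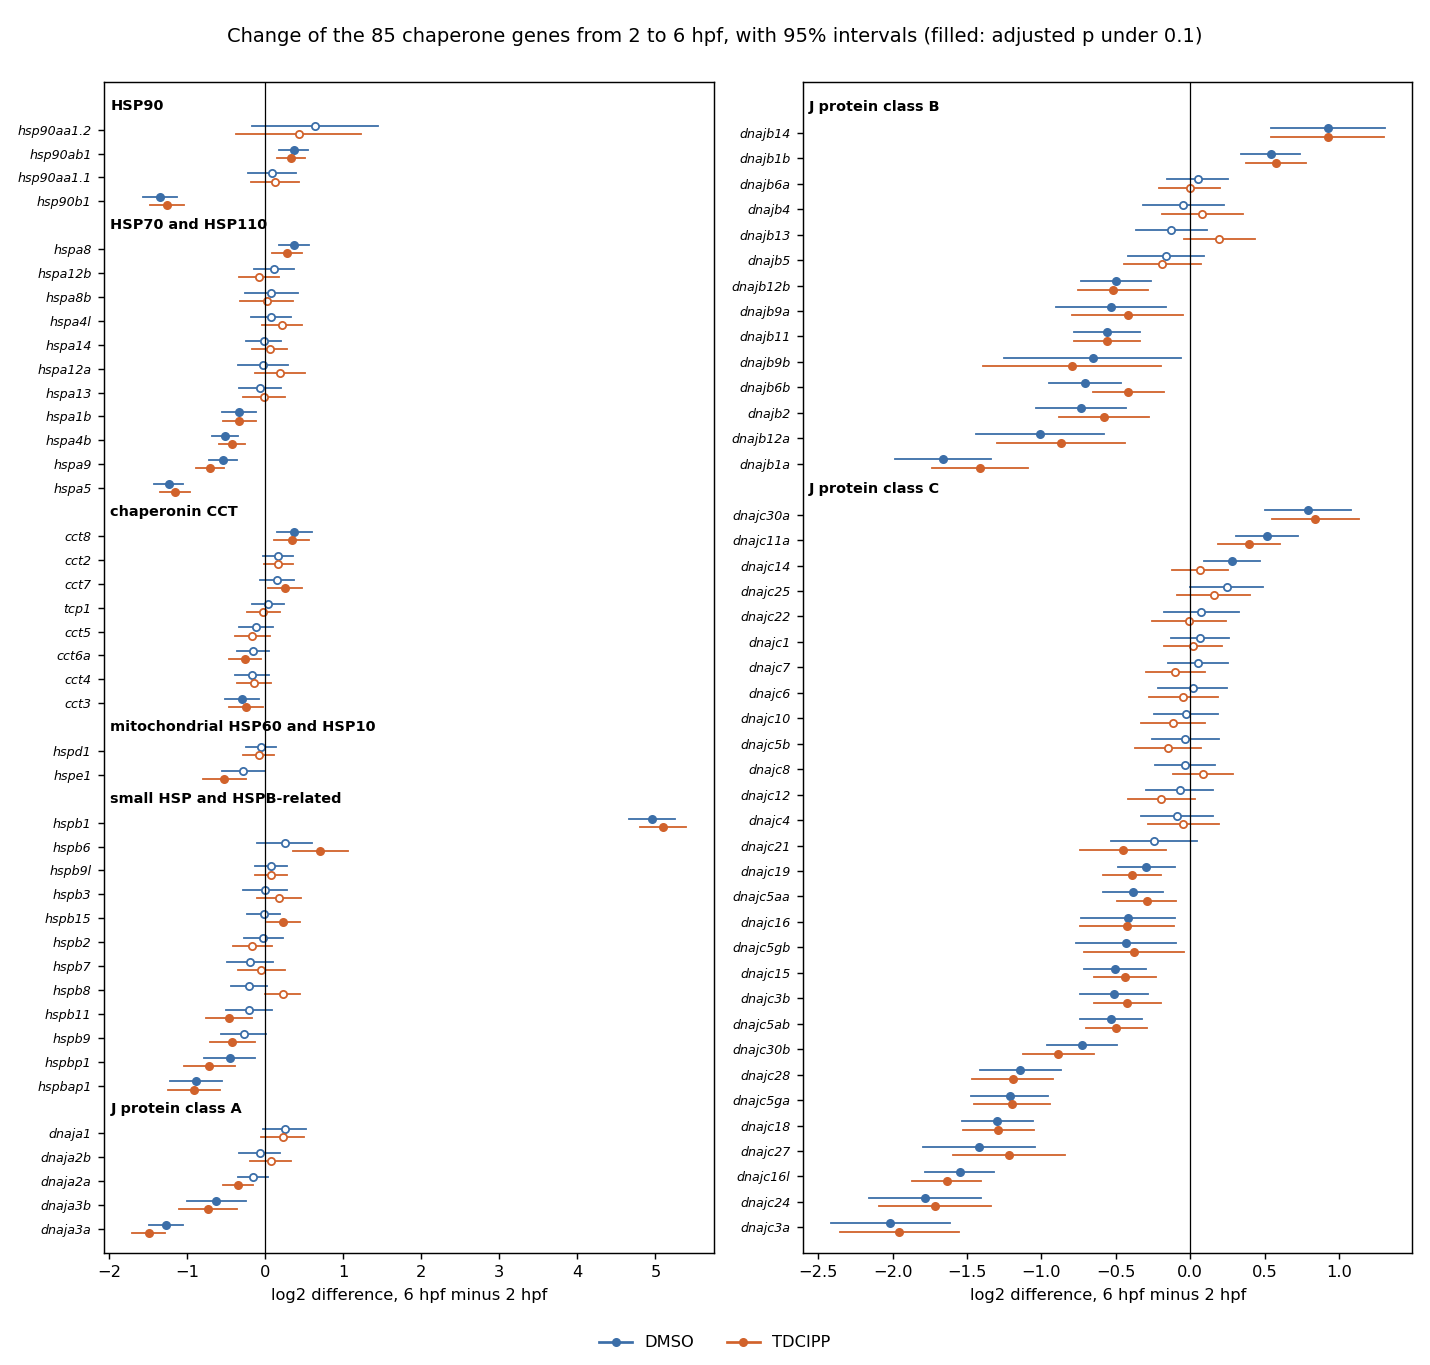
Log2 difference between 6 and 2 hpf (x axis) for each of the 85 genes (y axis, by role), in DMSO (blue) and TDCIPP (orange) embryos, with 95% intervals from limma on 12 pools; filled points were called at an adjusted p below 0.1. The large rise of hspb1, 4.96 in DMSO and 5.10 in TDCIPP, stands far from all other members, and points of both treatments lie close together for most genes.

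The largest change of any member was that of hspb1 (HSP27), a small HSP that binds actin filaments. Its signals in the DMSO pools were 7.88, 7.19 and 7.56 at 2 hpf and 12.54, 12.52 and 12.45 at 6 hpf. In the TDCIPP pools they were 7.65, 7.59 and 7.53, then 12.71, 12.64 and 12.72. The 2 times lay far apart in both treatments, and the rise was 4.96 ± 0.14 (SE; 31.1-fold, limma adjusted p of 5.2e-12) in DMSO and 5.10 ± 0.14 (34.3-fold) in TDCIPP. No other small HSP rose in DMSO embryos. Of the 12 members of this class 9 were not called, where 49.1% of all genes were called in DMSO. Most of those 9 (hspb2, hspb3, hspb6, hspb7, hspb8, hspb9l, hspb11 and hspb15) lay below the median of all rows in every group. Among all genes at that level only 11.9% were called in DMSO, so the 49.1% is not a like share for them. The 2 that fell carry HSPB in their names without being small HSPs: hspbap1, a binding partner of HSPB1, by 0.88, and hspbp1 by 0.45. The call of hspbp1 was lost without DMSO 2 hpf replicate 3, where it fell by 0.32, or without DMSO 6 hpf replicate 3, where it fell by 0.40.

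Of the 9 members called in TDCIPP only, 4 were of the small HSP and HSPB-related class. In TDCIPP embryos hspb6 rose by 0.71 and hspb15 by 0.23, where the DMSO changes were 0.25 and -0.02, and hspb9 and hspb11 fell by 0.42 and 0.46, where those of DMSO were -0.28 and -0.21. These cannot be read as differences between the treatments. The test of the difference itself gave a limma adjusted p of 0.9998 or more for each of them. The call of hspb15 was lost without TDCIPP 2 hpf replicate 2 (0.22) or 3 (0.19) or without TDCIPP 6 hpf replicate 1 (0.18) or 3 (0.25), and that of hspb9 without TDCIPP 6 hpf replicate 2, where it fell by 0.33.

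Of 10 members that work in or face the lumen of the endoplasmic reticulum, grouped after their values were seen, 7 fell in both treatments, 3 were not called and none rose, where 33% of all genes fell in DMSO. Changes in DMSO lay between -2.01 and 0.07. The signals of hspa5, which binds chains entering this compartment, were 11.81, 12.01 and 11.84 at 2 hpf and 10.67, 10.60 and 10.68 at 6 hpf in DMSO, and 11.98, 11.88 and 11.94, then 10.77, 10.84 and 10.73 in TDCIPP. There was no overlap between the times, and the change was -1.24 ± 0.09 (SE; 2.36-fold lower, limma adjusted p of 6.3e-08) in DMSO and -1.15 in TDCIPP. For hsp90b1 the pools of DMSO fell from 11.17, 11.20 and 11.34 to 9.91, 9.73 and 10.03, a change of -1.34 ± 0.10 (2.54-fold lower), and those of TDCIPP by 1.25.

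Of the J proteins of this compartment the largest fall was that of dnajc3a (P58IPK, a J protein that in mammals is also tied to the kinase PERK), from 7.79, 7.69 and 7.54 to 5.72, 5.73 and 5.53 in DMSO, a change of -2.01 ± 0.19 (SE; 4.04-fold lower). In TDCIPP it fell by 1.95, with a wider spread at 6 hpf (5.28, 6.17 and 5.64). Its paralog dnajc3b fell by 0.51 in DMSO, as did dnajb11 (ERdj3), which binds nascent chains, by 0.56, and the ERdj4 genes dnajb9a and dnajb9b by 0.53 and 0.66. The DMSO call of dnajb9a was lost without DMSO 2 hpf replicate 1 (a fall of 0.46). That of dnajb9b was lost without any one of the DMSO pools of 6 hpf or DMSO 2 hpf replicates 1 or 3 (falls of 0.45 to 0.72), without TDCIPP 2 hpf replicate 1 or TDCIPP 6 hpf replicate 2 (its fall of 0.66 then stayed), while without DMSO 2 hpf replicate 2 it fell by 0.997. In TDCIPP dnajb9a fell by 0.42, a call lost without 2 hpf replicate 1 or 2 or 6 hpf replicate 1 or 2 (falls of 0.21 to 0.44), and dnajb9b by 0.79, lost without replicate 3 of 2 hpf or of 6 hpf (falls of 0.54 and 0.61). The lumen members not called were dnajc10 (ERdj5, a reductase, -0.03), dnajc1 (0.07) and hspa13 (-0.06), and hspa13 lay below the median of all rows in every group.

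**Figure D3:**
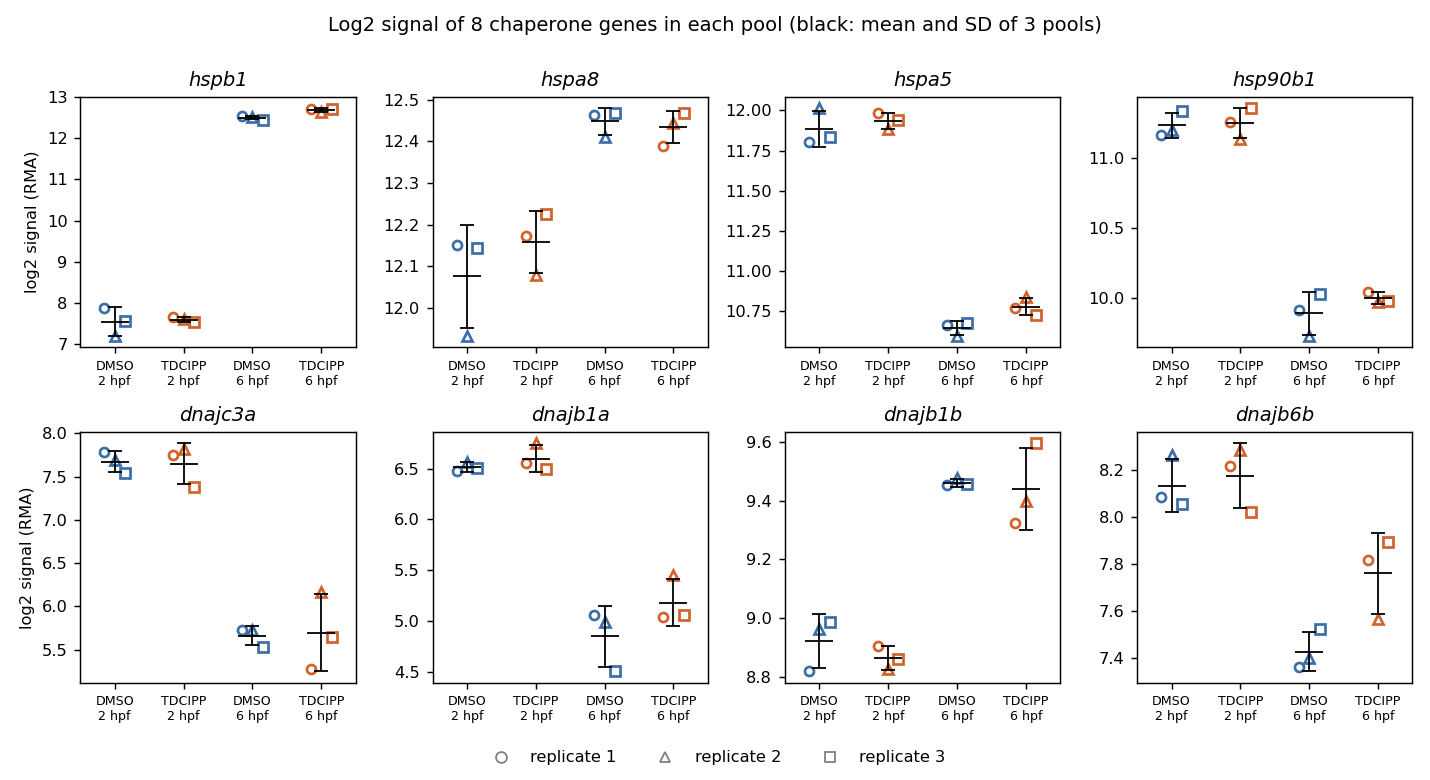
Log2 signal (y axis, its own scale in each panel) of 8 chaperone genes in the 12 pools, by group (x axis); symbols mark the replicate and black bars the mean and SD of 3 pools. The 2 and 6 hpf pools do not overlap in any of the 8 panels, and hspb1, hspa8 and dnajb1b are higher at 6 hpf while the other 5 are lower.

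The constitutive cytosolic genes hspa8 and hsp90ab1 rose slightly, by amounts that depended on the scaling. The signals of hspa8 in DMSO were 12.15, 11.93 and 12.14 at 2 hpf and 12.46, 12.41 and 12.47 at 6 hpf, and in TDCIPP 12.17, 12.08 and 12.23, then 12.39, 12.45 and 12.47. The rise of 0.37 ± 0.09 (SE; limma adjusted p of 0.0045) in DMSO and 0.28 in TDCIPP turned to -0.01 and -0.08 after quantile normalization was applied again, and without TDCIPP 2 hpf replicate 2 the rise in TDCIPP was 0.24 and was not called. A second row of hspa8, of lower signal, rose by 0.67 and 0.61.

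For hsp90ab1 the DMSO pools went from 11.39, 11.46 and 11.53 to 11.82, 11.78 and 11.89. The rise of 0.37 ± 0.09 (SE; limma adjusted p of 0.0036), and of 0.33 in TDCIPP, shrank to 0.06 and 0.09 with quantile normalization applied again, when neither was called. The HSP110 gene hspa4b, an exchange factor for HSP70, fell by 0.51 in DMSO and 0.43 in TDCIPP. Of the 11 HSP70 and HSP110 members, 4 fell in DMSO (hspa5, hspa9, hspa4b and hspa1b), where 33% of all genes fell. Of these 11, 1 rose (hspa8), beside 16.1% of all genes, and 6 were not called. Those 6 included hspa14 (-0.02), which in mammals sits at the ribosome, hspa12a (-0.03), hspa12b (0.11) and hspa8b (0.08). The call of hspa1b did not hold under every setting, in DMSO or in TDCIPP.

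The stress-inducible cytosolic HSP90 genes hsp90aa1.1 and hsp90aa1.2 were not called in the fits of any comparison, and hsp90aa1.2 had the widest spread of any member at 6 hpf. There its signals were 6.43, 8.16 and 6.22 in DMSO and 6.30, 6.97 and 6.45 in TDCIPP, against 6.42, 6.199 and 6.28, and 6.09, 6.33 and 6.03, at 2 hpf. The pool labelled replicate 2 was the highest of its group in both treatments at 6 hpf. Both arrays of that DMSO pool were high, at 8.19 and 8.14, and so were both of the TDCIPP pool, at 7.03 and 6.91. The SD over the DMSO 6 hpf pools was 1.07, where the median SD of the members was 0.13.

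Without DMSO 6 hpf replicate 2, the difference of hsp90aa1.2 with TDCIPP at 6 hpf turned from -0.36 ± 0.45 (SE) to 0.25 ± 0.20 and its DMSO change over time went from 0.64 to 0.03. Without DMSO 6 hpf replicate 3 that DMSO change was 0.999 and was called (limma adjusted p of 0.055), and it was also called in the fit of all arrays that took pools as a random block (0.64, limma adjusted p of 0.079). The change in TDCIPP, 0.43, was called without DMSO 6 hpf replicate 2 (limma adjusted p of 0.053) and in a fit of the TDCIPP pools alone (0.089). The other copy, hsp90aa1.1, was also highest in replicate 2 at 6 hpf, by less, with 5.55, 5.98 and 5.59 in DMSO and 5.53, 5.86 and 5.79 in TDCIPP. These are closely related copies, and how well their probes tell them apart was not tested.

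Of the other chaperone genes listed, serpinh1b (HSP47, which folds collagen) had the same order. Its signals at 6 hpf were 3.604, 5.41 and 3.33 in DMSO and 3.74, 5.21 and 3.97 in TDCIPP. In mammals HSP47 is itself induced by heat, but whether heat had a part in these values was not tested. The values of this gene were known when it was picked. At 6 hpf its paralog serpinh1a was also highest in replicate 2, at 5.76 in DMSO and 5.14 in TDCIPP. The HSP90 partners ahsa1a and fkbp8 were likewise highest in replicate 2 at 6 hpf in both treatments. The genes dnajb1b, hspb1 and bag3 lacked such an excess. In DMSO, dnajb1b had 9.45, 9.48 and 9.46, hspb1 12.54, 12.52 and 12.45, and bag3 6.21, 6.22 and 6.02. In TDCIPP, replicate 2 was not the highest pool for any of these. Of the zygotic stage markers, which are not chaperones, tbxta and eve1 were also highest in replicate 2 at 6 hpf in both treatments. Others, such as gsc and mxtx2, were so in neither. How many listed genes had either pattern was not counted. Over the members, the median deviation from the group mean at 6 hpf was 0.0005 in DMSO replicate 2 and -0.0052 in TDCIPP replicate 2. Rises and falls cancel in such a median, so it cannot show whether these pools were apart from the rest. Whether the replicate 2 pools shared a clutch or a day is not in the labels, and its part in these values was not tested.

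**Figure D4:**
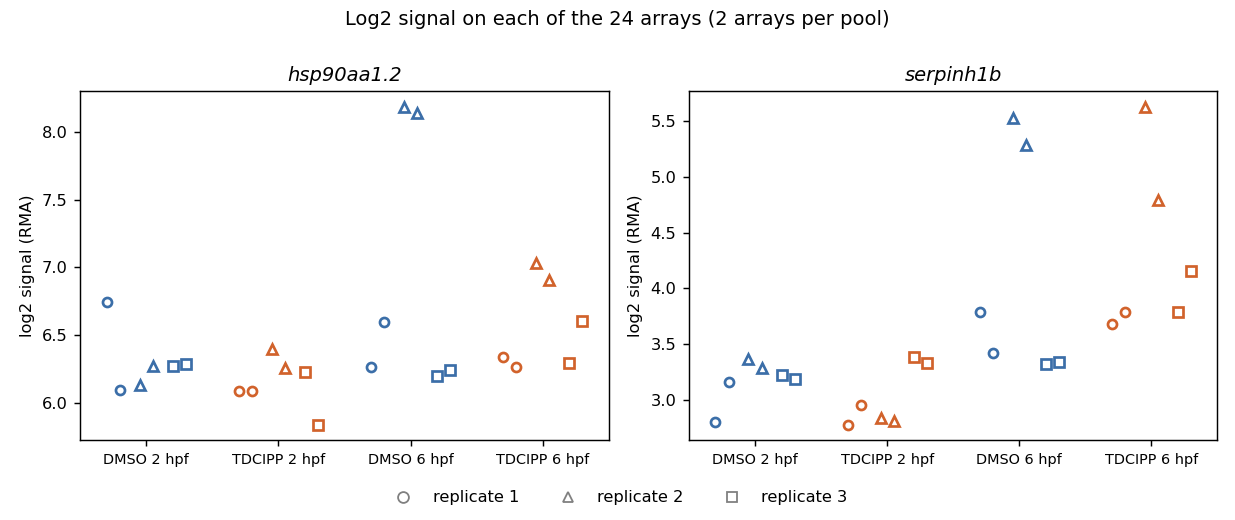
Log2 signal (y axis) of hsp90aa1.2 and serpinh1b on each of the 24 arrays, by group (x axis), with 2 arrays side by side for each pool and symbols for the replicate. At 6 hpf both arrays of replicate 2 (triangles) are the highest of their group in both treatments, with hsp90aa1.2 at 8.19 and 8.14 in DMSO.

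The ring of the chaperonin CCT has a subunit from each of the 8 members measured (tcp1 and cct2 to cct8), and in DMSO their changes from 2 to 6 hpf lay between -0.30 and 0.37. Only cct8 was called higher (0.37 ± 0.10 SE) and only cct3 lower (-0.30 ± 0.10 SE). So 2 subunits of the same ring were called in opposite directions and 6 were not called, where 49.1% of all genes were called. In TDCIPP 2 more were called, cct7 higher (0.25) and cct6a lower (-0.26). A second row of cct8, of lower signal, was called higher in both treatments (0.29 in DMSO and 0.30 in TDCIPP). A second row of cct2, also of lower signal, was called higher in TDCIPP (0.28) and was not called in DMSO. The calls in the rows used were fragile. With arrays centred on their medians cct8 rose by 0.25 in DMSO and was not called, and cct3 was lost in DMSO without DMSO 2 hpf replicate 3 (-0.22) or DMSO 6 hpf replicate 3 (-0.23). In TDCIPP, cct3 was lost without any 1 of the 6 TDCIPP pools but 2 hpf replicate 2 (values of -0.27 to -0.19), cct6a without any of its 2 hpf pools or 6 hpf replicate 3 (-0.26 to -0.24), and cct7 without any of its pools but 2 hpf replicate 3 and 6 hpf replicate 2 (0.20 to 0.25).

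In mitochondria, the HSP70 and its DNAJA3 partners fell, and the HSP60 of the folding chamber was not called. The signals of hspa9 (mortalin, the HSP70 of the import motor) were 10.67, 10.64 and 10.72 at 2 hpf and 10.03, 10.17 and 10.20 at 6 hpf in DMSO, and it fell by 0.54 ± 0.08 (SE) there and by 0.70 in TDCIPP. The DNAJA3 (TID1) genes, its J partners, fell too, dnaja3a by 1.27 and dnaja3b by 0.62 in DMSO. For hspd1 (HSP60) the change was -0.05 in DMSO and -0.08 in TDCIPP, neither called, with intervals that lay within 0.5 of 0. For hspe1 (HSP10), the lid of that chamber, it was -0.28, not called, in DMSO and -0.52, called, in TDCIPP, and a second row of hspe1 was not called in either.

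Of 10 pairs of duplicated J protein genes, both copies fell in DMSO in 6. The copies were called in opposite directions in 2 (dnajb1 and dnajc30), 1 copy was called in 1 pair (dnajb6) and neither in 1 (dnaja2). Among all genes 33% fell and 16.1% rose in DMSO, and pairs of other genes were not counted. In DMSO dnajb1a fell from 6.48, 6.57 and 6.51 to 5.06, 4.99 and 4.51, while dnajb1b, from the same DNAJB1 (HSP40) ancestor, a J partner of cytosolic HSP70, rose from 8.82, 8.96 and 8.99 to 9.45, 9.48 and 9.46. Times did not overlap for either gene. The changes were -1.66 ± 0.15 and 0.54 ± 0.09 (SE; limma adjusted p of 7.3e-07 and 0.00033), and in TDCIPP they were -1.41 and 0.58. A second row of dnajb1b also rose, by 0.67 in DMSO.

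The pair dnajc30a and dnajc30b, of a mitochondrial J protein, was also called in opposite directions, with dnajc30a up by 0.79 ± 0.13 and dnajc30b down by 0.73 ± 0.11 (SE) in DMSO and by 0.84 and 0.89 in TDCIPP. In the DNAJB6 pair, dnajb6b fell by 0.71 and dnajb6a, with a change of 0.05, was not called, and the difference between the copies was not tested. The DNAJA2 genes, J partners of cytosolic HSP70, were not called in DMSO (dnaja2a -0.16 and dnaja2b -0.07), and dnaja2a fell by 0.35 in TDCIPP. In class A dnaja1, another such partner, had a change of 0.25 in DMSO and was not called.

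Of the 14 class B J proteins, 2 rose and 8 fell in DMSO, and of the 29 of class C, 3 rose and 15 fell, where over all genes 16.1% rose and 33% fell. The other riser of class B was dnajb14, of the endoplasmic reticulum membrane (0.93 ± 0.18 SE), though it lay below the median of all rows in every group. Its relative dnajb12a fell by 1.01, and dnajb2, a neuronal ubiquitin-binding J protein in mammals, by 0.74. In class C, dnajc24 (DPH4, needed for diphthamide synthesis) fell by 1.78, from 7.11, 7.30 and 6.87 to 5.41, 5.52 and 5.01. The gene dnajc16l fell by 1.55, but by only 0.61 in a second row of lower signal. The class C members that rose were dnajc30a, dnajc11a (0.51), a mitochondrial cristae protein, and dnajc14 (0.28), the only member called in DMSO and not in TDCIPP, whose call was lost with arrays centred on their medians (0.15). The 5 cysteine string proteins (dnajc5 genes), J proteins of secretory vesicles that were grouped after their values were seen, had 4 that fell in both treatments, by up to 1.21 in DMSO, and none that rose.

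Over the members, the changes in DMSO and TDCIPP embryos ran close together. Of the 42 called in DMSO, 41 were called in TDCIPP in the same direction, so that 41 of the 85 members, beside 42.9% of all genes, were called in both. Across the 85 genes Pearson's r was 0.984 (0.968 without hspb1) and Spearman's rho 0.937, with genes that are not independent replicates and share their probes between the treatments. Of 62 members above the median of all rows in all 4 groups, 36 (58.1%) were called in DMSO. Among all genes at that level 63.4% were. Of 18 members below it in all 4, 2 were called in DMSO (11.1%), beside 11.9% of all genes at that level. In TDCIPP 41 of the 62 were called (66.1%), beside 64%, and 5 of the 18 (27.8%), beside 11.9%.

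Genes that regulate or work with these chaperones were taken from 6 lists, of which 66 of 70 genes were measured. With TDCIPP, 0 of the 66 were called by limma at either time or in the difference of effects, beside 0% of all genes. In the difference of effects 3 had an unadjusted p below 0.05, beside 3.66% of all genes. At each time 1 gene did, beside 2.06% of all genes at 2 hpf and 5.36% at 6 hpf. That gene was trap1, the HSP90 of mitochondria, which was 0.33 higher at 2 hpf and 0.26 higher at 6 hpf (unadjusted limma p of 0.017 and 0.025, adjusted p of 1 and 0.864). From 2 to 6 hpf in DMSO embryos 12 rose and 31 fell, and in TDCIPP 11 rose and 31 fell, of 66, where over all genes 16.1% rose and 33% fell in DMSO and 17% and 32.5% in TDCIPP. No list was tested against other genes.

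By list, the enzymes and lectins of the endoplasmic reticulum had 9 that fell and 1 that rose of 13 in DMSO, to be read, like the other lists, beside the 33% and 16.1% of all genes. They included pdia4, a disulfide isomerase, which fell by 2.38, and calr3b, of the calreticulin family, which fell by 1.1015. In mitochondria 4 of 7 fell, and the proteases afg3l2 and lonp1 had changes of -2.2965 and -1.3021. Of the 19 partners of HSP90 measured, 10 fell and 5 rose, with fkbp5 lower by 1.66 and cdc37l1 by 1.33. Of 12 partners of HSP70, 4 fell and 3 rose. Among these hyou1, an HSP70 relative of the endoplasmic reticulum, fell by 0.96 and the mitochondrial exchange factor grpel2 rose by 1.32. Of 9 prefoldin subunits and CCT helpers 4 fell and none rose. Of 6 HSF genes and regulators 2 rose in DMSO, hsf1 by 0.75 and hsbp1b, which encodes a binder of HSF1, by 0.81.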

How the data were processed

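RNA of 12 pools of embryos was measured on 24 Zebrafish Gene 1.0 ST arrays. The authors processed the scans in Expression Console with RMA (background correction, quantile normalization, probe summary; version not given in the sources used here), and the deposited values are log2 signals of 75212 transcript clusters. Of these, 13972 control rows were left out and 61240 were tested: 20806 with 1 gene symbol, 855 with several (tested, not named) and 39579 with none. The 85 members were matched by gene ID to a current gene list, with the same symbol.

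Arrays of a pool were averaged and then fitted in R 4.3.3 with lmFit and eBayes of limma 3.58.1 (two-sided tests, Benjamini-Hochberg over all tested rows, threshold 0.1, as in the study's methods). TDCIPP and DMSO were compared within each time on 6 pools. The difference of effects and the changes over time came from 1 fit of all 12 pools. The number of pools limits the precision, with a median SE of 0.11 for a member's TDCIPP difference. The labels do not say whether pools came from separate clutches, so p-values measure the spread between these pools, which may be technical in part. The fits were tested on simulated data.

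Members and lists were chosen with earlier results of these data known. The rule for named genes took, by p, 5 members per direction at 6 hpf and 3 at 2 hpf with TDCIPP, the 3 largest changes per direction and role among those called over time, the members each class is known by, and the leading genes of the other lists. Genes outside it were chosen after their values were seen. Alternatives (26 settings) were a block for the replicate number (replicate block), a random effect of the pool over all arrays, either array alone, the test of the study's methods, eBayes with trend and robust options, scalings, filters, another set of pools in the fit, the mean of a gene's rows, and leaving out each pool. Pools with equal replicate numbers were not treated as pairs in these fits, and the replicate block was run as an alternative. Over the whole table, same-numbered DMSO and TDCIPP pools had deviations that correlated by 0.25, 0.05 and 0.12 at 2 hpf. At 6 hpf they correlated by 0.18, 0.12 and 0.09. All these values were positive, and 11 of the 12 pools correlated best with their own number, so a link between same-numbered pools cannot be set aside. Figures were drawn with matplotlib.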

Additional observations from a re-analysis of the deposited data

How the results depend on the processing

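No setting tried called a member with TDCIPP at either time or in the difference of effects. With the replicate block, 44 members were called in DMSO over time and 48 in TDCIPP, and 11 of the 12 pools correlated best with their own number. Of all 61240 rows that block called 24636 in DMSO and 24805 in TDCIPP. Over all settings 38 to 52 members were called in DMSO and 39 to 54 in TDCIPP. Both lowest counts came from array 2 alone, where 20410 and 19758 of the 61240 rows were called. Both highest came with arrays centred on their medians, where 26643 and 25817 rows were. The filter on signal left 59 members and 25470 rows, of which 17564 rows were called in DMSO and 17795 in TDCIPP. Of the 42 DMSO calls, 30 held under every setting in which the gene was fitted, and of the 50 TDCIPP calls 28. Members that the filter on signal left out were not fitted there. The calls of dnajc16 and dnajc5gb, too, were lost in both treatments without single pools (dnajc16 in DMSO without 2 hpf replicate 1 or 2 or 6 hpf replicate 3, values of -0.38 to -0.35, and dnajc5gb without 2 hpf replicate 2 or 3 or 6 hpf replicate 2, -0.41 to -0.35). The reversals were those of hspa8 with quantile normalization applied again, at -0.0065 in DMSO and -0.084 in TDCIPP.

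The members' median difference with TDCIPP at 6 hpf was -0.0274 on array 1 alone and 0.0467 on array 2 alone. Their median change over time was -0.1313 in DMSO and -0.1882 in TDCIPP on array 1 alone, -0.284 and -0.3051 with arrays centred on medians, -0.1799 and -0.1949 with quantile normalization again, and -0.2432 and -0.2923 with a mean signal of at least 5, which leaves fewer genes. The medians of all genes beside these were -0.0843 and -0.0629, -0.2165 and -0.2058, -0.1616 and -0.1435, and -0.252 and -0.2426, so that with the filter on signal the members' median in DMSO was no longer the lower of both. Leaving out a pool gave 0.0101 to 0.0316 at 2 hpf, 0.0019 to 0.0154 at 6 hpf, -0.1637 to -0.0989 for DMSO and -0.187 to -0.1354 for TDCIPP over time. The cause of these shifts was not tested.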
